A study of Homo sapiens with 6 samples.

Results

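The genes described here encode the proteins of the cytosolic ribosome. They were taken as every symbol that starts with RPL or RPS followed by a digit, together with RPLP0, RPLP1, RPLP2 and RPSA. Of the 102 identifiers in the tables that start this way, 15 were left out, namely 10 kinases whose symbols start with RPS6K, 3 hyphenated read-through genes, the pseudogene RPS27AP5 and RPS19BP1. The remaining 87 of the 23062 identifiers comprised 53 genes of the large subunit and 34 of the small subunit. RNA was sequenced from DU145, an established human prostate carcinoma line that grows independently of androgen, to compare cells grown for 48 h with taraxasterol (TAX), a plant triterpenoid used at its IC50 dose, with untreated cells. There were 3 control libraries and 3 TAX libraries, and whether the control medium held the solvent of TAX was not stated. No label says that the libraries of a group came from separate cultures. The spread between these libraries may therefore be technical, and the p-values set the difference between the groups against it. The deposited value of a gene was taken as FPKM, the fragments counted per length of transcript and scaled to the size of the library, which allows levels to be compared between genes. The values of a library summed to between 322483 and 363724, no read counts were used here and the depth is therefore unknown.

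Each ribosomal protein is present once in a ribosome, apart from the paired stalk proteins RPLP1 and RPLP2, so cells make these messages in large and coordinated amounts. Most of the messages start with a C followed by a run of pyrimidines, the terminal oligopyrimidine (TOP) motif, through which the kinase complex mTORC1 and the RNA-binding protein LARP1 control their translation. LARP1 also stabilises them. The genes are also known for their many processed pseudogenes and for the small nucleolar RNAs (snoRNAs) in their introns. In the GENCODE 29 annotation, 77 of the 87 genes had named pseudogenes, 1145 in all. RPL23A had 91, RPSA 74, RPL21 66 and RPL7 61. Reads shared with such copies may be assigned to either, which makes the levels of these genes uncertain. Annotated snoRNAs, 60 in all, lay inside 28 of the genes, with 5 in RPL4.

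The start of the message is what these genes share in sequence. In the RefSeq promoter table (GRCh38.p14), 70 of the 87 genes were found, and 48 of them (68.6%) had at least 1 annotated start with a C followed by at least 4 further C or T, read on the strand of the gene. The share was 67.4% for the large subunit (29 of 43) and 70.4% for the small subunit (19 of 27). Among 27235 other genes of the table it was 4.98% (1356 genes). The windows below hold 10 bases before the start and 20 from the start onwards, written 5′ to 3′ on the gene's strand, with the pyrimidine run at the start in capitals. They are shown for the stalk proteins, for some genes whose values are described below, and for some paralogs whose message starts otherwise.
RPLP0 (chr12:120201092-120201121, minus strand): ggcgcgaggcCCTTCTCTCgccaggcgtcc
RPLP1 (chr15:69452808-69452837, plus strand): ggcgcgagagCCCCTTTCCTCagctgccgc
RPLP2 (chr11:809957-809986, plus strand): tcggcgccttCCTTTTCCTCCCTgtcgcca
RPL14 (chr3:40457329-40457358, plus strand): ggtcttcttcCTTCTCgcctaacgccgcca
RPL22 (chr1:6199576-6199605, minus strand): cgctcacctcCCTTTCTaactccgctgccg
RPL39 (chrX:119791611-119791640, minus strand): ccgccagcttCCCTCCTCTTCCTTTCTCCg
RPS6 (chr9:19380217-19380246, minus strand): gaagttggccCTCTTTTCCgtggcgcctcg
RPS27 (chr1:153990752-153990781, plus strand): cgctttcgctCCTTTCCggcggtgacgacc
RPS27L (chr15:63157458-63157487, minus strand): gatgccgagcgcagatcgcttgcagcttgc
RPL36AL (chr14:49620607-49620636, minus strand): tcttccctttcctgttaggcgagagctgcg
RPL7L1 (chr6:42879606-42879635, plus strand): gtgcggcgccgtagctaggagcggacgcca
The last 3 windows hold no such run at the start, and those genes are paralogs of RPS27, RPL36A and RPL7. In RPL36AL pyrimidines run across the annotated start but end soon after it. A start without a run of the required length was not particular to paralogs: RPL3, RPL4, RPS7 and RPS29 had none, while the paralog RPL22L1 had one. In RPL3 a run that was too short for the rule began at the start. In RPS7, as in RPL36AL, pyrimidines ran across the annotated start and ended soon after it. RPL7L1 and RPS27L were expressed well below the genes they resemble, as described below, whereas RPL36AL was expressed above RPL36A. A match to these letters describes the annotated start and not how the message is translated.

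The messages were among the most abundant in DU145 cells. Of the 87 genes, 84 reached 1 FPKM in at least 3 of 6 libraries and were tested (51 large, 33 small). RPL10L and RPS4Y2 were listed at 0 in all 6 libraries, and RPL3L lay between 0.026 and 0.127 FPKM. RPL10L and RPL3L are copies known from testis and muscle. Of the members, 68 had a mean of at least 100 FPKM over the 6 libraries, and 28 were among the 100 genes with the highest mean. The median of the tested members' means was 237 FPKM for the large subunit and 294 FPKM for the small subunit, compared with 9.75 FPKM over all tested genes. RPLP0, the base of the stalk, was highest with a mean of 1004 FPKM, followed by RPS2 (978), RPL7A (809), RPS18 (699) and RPS27 (666). The epithelial markers KRT8, KRT18, EPCAM and CDH1 were present in every library, while KLK3, which marks androgen-responsive prostate cells, was listed at 0. The basal keratin KRT5 was also listed at 0, although it had been set down as a marker of this line. Of the markers of other cells, those of endothelium and the leukocyte markers PTPRC, CD3E and LYZ were at or near 0, while CD68, a lysosomal protein that epithelial cells also make, measured 26.7, 23.6 and 20.01 FPKM in control and 32.5, 33.4 and 32.9 FPKM in TAX libraries, and COL1A1 2.02, 2.08 and 1.89 FPKM and 1.43, 1.48 and 1.42 FPKM. The other fibroblast markers were at or near 0.

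No ribosomal protein gene differed between TAX and control cells at an adjusted p under 0.05 (limma on log2(FPKM + 1), Benjamini-Hochberg over 12359 tested genes), and the smallest adjusted p among them was 0.438. Over all tested genes 39 rose (0.316%) and 20 fell (0.162%). At an unadjusted p under 0.05, 2 of the 84 members were higher under TAX, RPLP1 and RPL14, and none was lower, compared with 7.73% of all tested genes higher and 2.41% lower. All 3 TAX libraries lay above all 3 control libraries in 5 members (RPL7L1, RPL8, RPL10, RPLP0 and RPS7), or 5.95%, compared with 14.6% of all tested genes. They lay below in 3 members (RPL11, RPL30 and RPL41), or 3.57%, compared with 3.34% of all tested genes. The members' share of higher genes was thus below that over all genes, and their share of lower genes was near it. These splits moved with the scaling of the libraries. After quantile normalization 7 members were lower and none higher at an unadjusted p under 0.05, compared with 5.79% of all tested genes lower and 6.03% higher. After centring each library on its median 4 were lower and none higher, compared with 6.59% lower and 5.52% higher. After rescaling to a common sum 3 were lower and 1 higher, compared with 4.2% lower and 8.36% higher.

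The log2 fold changes of the 84 members, TAX against control on the log2(FPKM + 1) scale, ran from -0.28 for RPS27 to 0.66 for RPLP1. Their median was 0.036, with 49 (58.3%) above and 35 below 0. Over all tested genes the median was 0.054, and 69.1% lay above 0. Centring and quantile normalization bring that general shift to about 0, so a member near 0 lay slightly below the bulk of genes. For 77 of the 84 members the 95% interval of the difference stayed within a 1.5-fold change in either direction. The 7 others were RPLP1, RPL14, RPL35A, RPL37, RPS10, RPS27 and RPS29. The widest interval was that of RPS29, from 0.507-fold to 1.85-fold, so for this gene a change of nearly that size in either direction was not detectable here.

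**Figure D1:**
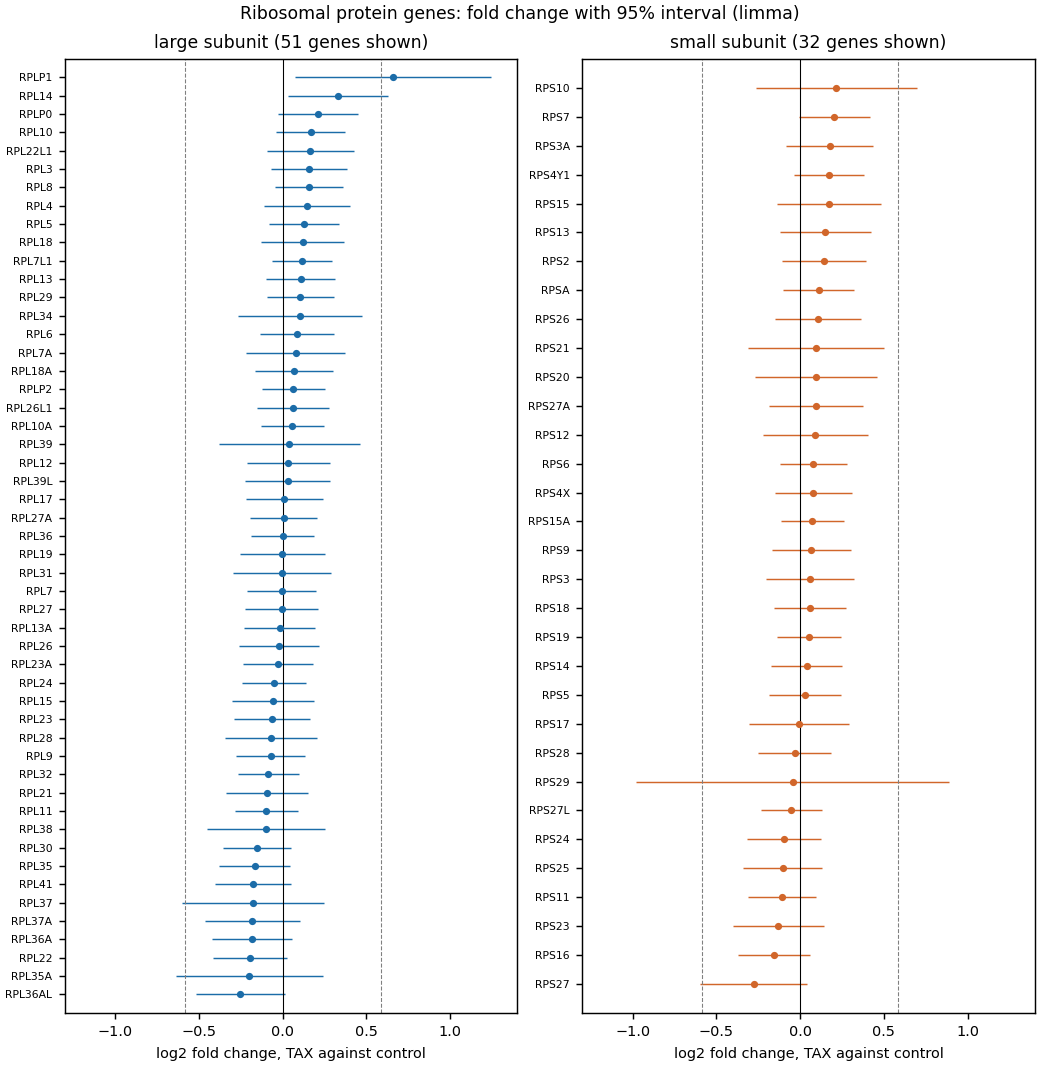
Log2 fold change of 83 of the 84 tested ribosomal protein genes (1 gene is not shown), TAX against control (x axis, log2(FPKM + 1) scale), with 95% intervals from limma as bars, the large and small subunits in separate panels and dashed lines at a 1.5-fold change. Most of the intervals shown cross 0, and RPLP1 at 0.66 stands farthest from it.

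The subunits were compared by their medians and sums. The median log2 fold change was 0.0016 over the large subunit, with 26 genes above and 25 below 0. It was 0.066 over the small subunit, with 23 above and 10 below. The share above 0 was 51.0% for the large and 69.7% for the small subunit, compared with 69.1% of all tested genes. After quantile normalization the medians were -0.054 and -0.0012, so the sign of both turned. The difference of -0.065 between the medians was not stable: it shrank to -0.0073 without control replicate 1 and to -0.020 without control replicate 3, and was 0.026 when both were left out. All members together took 6.70, 7.20 and 7.88% of the summed FPKM in control replicates 1, 2 and 3, and 7.25, 7.42 and 7.07% under TAX. The control libraries spanned the TAX libraries, and the means of 7.26% ± 0.590 and 7.24% ± 0.175 (SD, n = 3 each) differed by less than either spread. The difference of the means, -0.015 percentage points, became -0.294 without control replicate 1 and 0.294 without control replicate 3. The share depends on the sum of the library as well as on the members. The members summed to 24380, 25159 and 25407 FPKM in control replicates 1, 2 and 3, while all genes summed to 363724, 349476 and 322483. Under TAX the members summed to 25501, 26556 and 24417 FPKM, and all genes to 351747, 358033 and 345464. The large subunit took 3.87, 4.07 and 4.41% in control and 4.14, 4.22 and 3.99% in TAX libraries, and the small subunit 2.83, 3.13 and 3.47% and 3.11, 3.19 and 3.07%. The ratio of summed large to small subunit FPKM was 1.37, 1.30 and 1.27 in control and 1.33, 1.32 and 1.30 in TAX libraries, so the TAX ratios lay within the range of the control ratios. For the share and for the ratio, the lowest and the highest of the 6 values both came from control replicates 1 and 3.

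**Figure D2:**
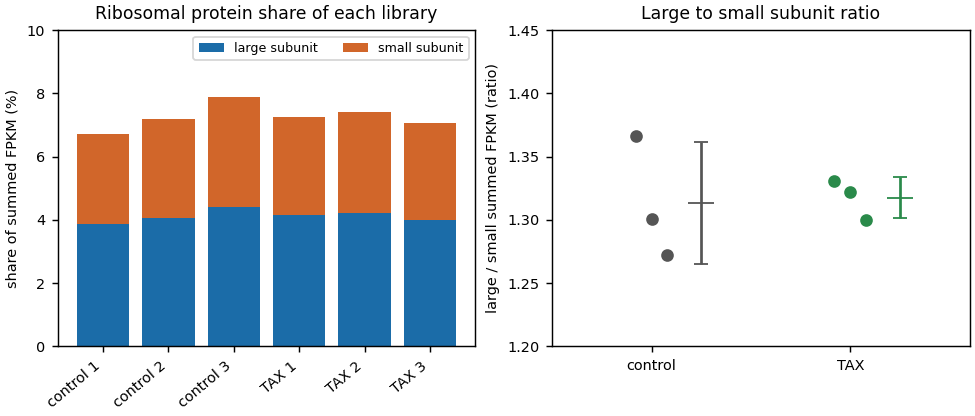
Share of each library's summed FPKM taken by the large and the small subunit genes (left, percent, stacked bars, 1 per library) and ratio of their sums (right, 1 point per library, with the mean and SD of each group and an axis that does not start at 0). The control libraries spread more widely than the TAX libraries, with ratios of 1.27 to 1.37 compared with 1.30 to 1.33.

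The stalk of the large subunit, which recruits translation factors to the ribosome, consists of RPLP0 and of RPLP1 and RPLP2 bound to it. RPLP1 measured 242, 408 and 634 FPKM in control and 645, 644 and 595 FPKM in TAX libraries. Its TAX values were tightly grouped, its control values differed 2.62-fold among themselves, and control replicate 3 lay within the TAX range. The log2 fold change was 0.66 ± 0.26 (SE; 95% interval 0.075 to 1.24, adjusted p = 0.438), and it was 0.30 without control replicate 1 and 1.00 without control replicate 3. RPLP0 measured 962, 993 and 840.3 FPKM in control and 1104, 1130.2 and 995 FPKM in TAX libraries, where the groups did not overlap but the highest control and the lowest TAX library nearly met. Its log2 fold change was 0.21 ± 0.11 (SE; adjusted p = 0.538). RPLP2 measured 333, 317 and 312 FPKM in control and 344, 338 and 325 FPKM in TAX libraries, overlapping, with a log2 fold change of 0.063 (adjusted p = 0.814). The members of the stalk had log2 fold changes above 0, as did 69.1% of all tested genes, and none of the stalk genes passed the adjusted threshold.

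Of the other members with the smallest p-values, RPL14 had the lowest level. RPL14, a large subunit protein, measured 27.0, 39.4 and 31.6 FPKM in control and 41.3, 36.0 and 46.0 FPKM in TAX libraries. Its groups overlapped, since control replicate 2 exceeded TAX replicate 2, and the log2 fold change of 0.33 ± 0.13 (SE; unadjusted p = 0.032, adjusted p = 0.444) fell to 0.053 when control replicates 1 and 3 were left out. RPS7, a small subunit protein that can bind MDM2, measured 284, 329 and 286 FPKM in control and 331, 367 and 337 FPKM in TAX libraries. The groups did not overlap, but the margin between the highest control and the lowest TAX value was narrow, and the log2 fold change was 0.20 (adjusted p = 0.499). RPL36AL measured 271, 217 and 285 FPKM in control and 197, 239 and 210.3 FPKM in TAX libraries, with control replicate 2 inside the TAX range and a log2 fold change of -0.25 (adjusted p = 0.505). RPS10, known from inherited anaemia, had a log2 fold change of 0.22 with a wide interval of -0.26 to 0.69, and is taken up again below.

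**Figure D3:**
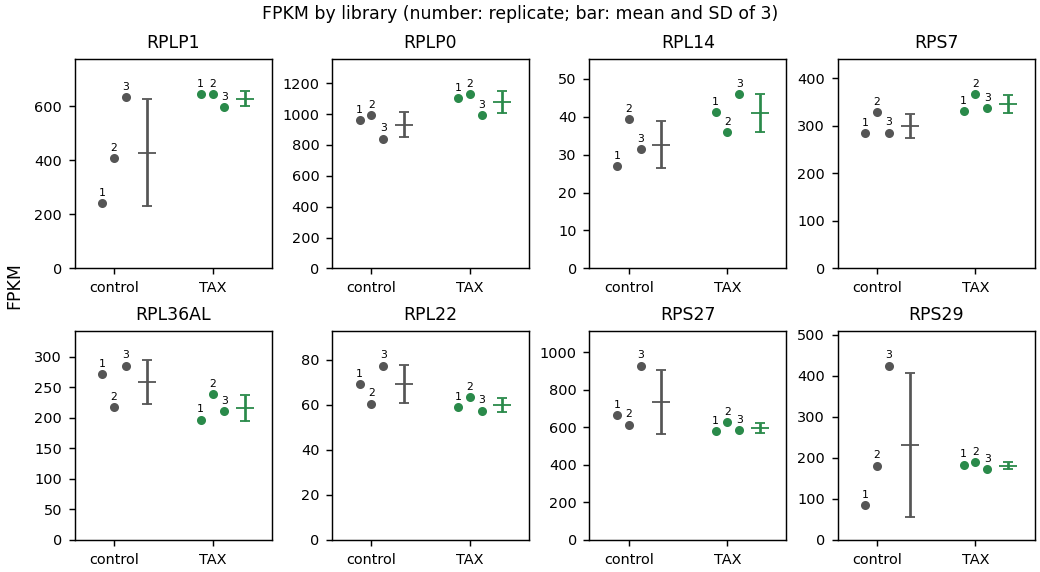
FPKM of selected ribosomal protein genes in each library, with 1 numbered point per library (number: replicate) and the mean and SD of each group beside it, each panel on its own axis. RPLP1 and RPS29 show control values far apart and TAX values close together, while RPLP0 and RPS7 show groups that do not overlap.

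The largest falls in log2 fold change were those of RPS27, RPL36AL, RPL35A and RPL22. RPS27, a zinc finger protein of the small subunit, measured 662, 614 and 928 FPKM in control and 580.0, 626 and 584 FPKM in TAX libraries. Its log2 fold change of -0.28 ± 0.14 (SE; adjusted p = 0.543) rested on control replicate 3, without which it was -0.097. RPL22, a large subunit protein that is dispensable for translation in many cells, measured 69.2, 60.5 and 77.3 FPKM in control and 58.9, 63.3 and 57.4 FPKM in TAX libraries. The groups overlapped through control replicate 2, and the log2 fold change was -0.20 (adjusted p = 0.535). RPL35A, mutated in some patients with Diamond-Blackfan anaemia, measured 134, 182 and 254 FPKM in control and 148, 190.5 and 145 FPKM in TAX libraries, so the TAX values lay inside the control range.

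RPL5 and RPL11 are the members that enter the ribosome together with the smallest ribosomal RNA, and that bind MDM2 when ribosome assembly is disturbed. RPL5 measured 295, 342 and 331 FPKM in control and 355, 365 and 335 FPKM in TAX libraries, overlapping (log2 fold change 0.13, adjusted p = 0.665). RPL11 measured 243, 241 and 258 FPKM in control and 233, 239 and 221 FPKM in TAX libraries. All its TAX values lay just below the lowest control value, with a log2 fold change of -0.098 (95% interval -0.29 to 0.089, adjusted p = 0.705). These partners had estimates of opposite sign, both with intervals that crossed 0, and the difference between them was not tested.

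Among small subunit proteins of known role, RPS6, the substrate of the ribosomal protein kinases, measured 319.7, 318 and 284 FPKM in control and 315, 337 and 321 FPKM in TAX libraries. The groups overlapped and the log2 fold change was 0.079 (95% interval -0.12 to 0.28). RPS14, lost in one form of myelodysplastic syndrome, had a log2 fold change of 0.038, and RPS19, the most often mutated gene in Diamond-Blackfan anaemia, one of 0.053. RPSA, which doubles as a laminin receptor, measured 564, 595 and 558 FPKM in control and 649, 638 and 569 FPKM in TAX libraries (log2 fold change 0.11, adjusted p = 0.710), with TAX replicate 3 inside the control range. The abundant RPS2 measured 1060.0, 912 and 824 FPKM in control and 997, 1045.0 and 1029 FPKM in TAX libraries, where the TAX values lay within the control range.

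The members, like most tested genes, varied more among the control than among the TAX libraries. The highest control value was a median of 1.23 times the lowest over the 84 tested members, compared with 1.11 times among the TAX libraries, and the control range was the wider one in 67 of 84 members. Over all tested genes the control range, there taken on the log2(FPKM + 1) scale and not as a ratio of FPKM, was wider in 72.8%. The highest control value exceeded the lowest by more than 1.5 times in 11 members, a count not made over all tested genes. The widest were RPS29 (5.02 times), RPLP1 (2.62 times), RPL39 (1.95 times) and RPL35A (1.90 times). RPS29, a short zinc finger protein of the small subunit, measured 84.7, 181 and 425 FPKM in control and 184, 189 and 172 FPKM in TAX libraries. RPL39, among the smallest ribosomal proteins, measured 185, 269.9 and 360.2 FPKM in control and 274, 273 and 261 FPKM in TAX libraries. In both genes, as in RPLP1, control replicate 1 was lowest and control replicate 3 highest of the controls, with control replicate 2 close to the TAX values for RPS29 and RPL39.

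Control replicate 3 held the highest of the 6 values for 31 members and the lowest for 33, or 76.2% together, compared with 61.8% of all tested genes, of which 58.0% were lowest and 3.80% highest. Control replicate 1 was highest for 18 members and lowest for 23, or 48.8% compared with 30.4% of all tested genes. Control replicate 2 held an extreme for 6 members, or 7.14%, compared with 27.6% of all tested genes. The median absolute deviation of a member from its own median over the 6 libraries was 0.091, 0.031 and 0.165 on the log2 scale in control replicates 1, 2 and 3, and 0.038, 0.070 and 0.053 in the TAX libraries. The deviation in control replicate 3 tended to be lower for members with longer transcripts, with exceptions such as RPL35A (1234 bases, 0.63) and RPS15 (556 bases, -0.50). The median deviation in that library was 0.13 over the 19 members with annotated transcripts under 600 bases and -0.093 over the 19 members of 1000 to 2000 bases. Across genes, which are not independent replicates and share these libraries, the correlation of this deviation with log2 transcript length was -0.34 over the 84 members (Spearman -0.41) and -0.21 over 11273 other genes (Spearman -0.18). In the other libraries it ran from 0.087 to 0.17 over the members. Over the other genes it was -0.24 in TAX replicate 2 and 0.20 in TAX replicate 3, so a relation with length was not particular to control replicate 3 there. The other genes under 600 bases had a median deviation of 0.016 (144 genes) and those of 2000 bases or more one of -0.145 (7366 genes). The log2 fold changes of the members correlated with length at 0.20 (Spearman 0.29) with all libraries and at -0.077 (Spearman 0.058) without control replicate 3. After a length correction, chosen after the data were seen, 2 members were higher and 3 lower at an unadjusted p under 0.05, compared with 6.38% and 7.11% of the genes then tested, and the smallest adjusted p among the members was 0.303.

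**Figure D4:**
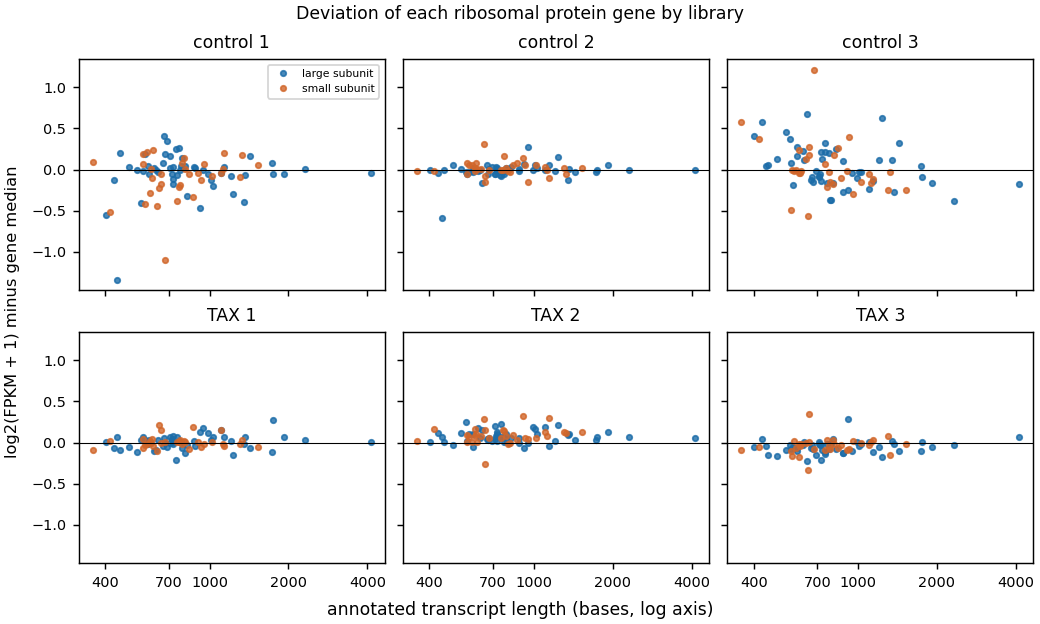
Deviation of each tested ribosomal protein gene from its own median over the 6 libraries (y axis, log2(FPKM + 1)) against annotated transcript length (x axis, bases, log axis), with 1 panel per library and the subunits in separate colours. Points scatter most widely in control replicates 3 and 1 (median absolute deviations 0.165 and 0.091), those of TAX replicate 2 (0.070) lie mostly above 0, and control replicate 2 and TAX replicate 1 have the smallest deviations (0.031 and 0.038).

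Leaving out control replicates 1 and 3 together, an alternative chosen after the data were seen, left no member past the adjusted threshold. The smallest adjusted p was then 0.0714, that of RPLP1, with a log2 fold change of 0.62 against the single remaining control library, which was assumed to vary like the others. RPLP1 was the only member at an unadjusted p under 0.05 in that fit. The members did not pass the adjusted threshold in any of the other alternatives either.

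RPS10 overlaps a read-through gene. It measured 231, 334 and 181 FPKM in control and 313, 328 and 213 FPKM in TAX libraries. That gene, RPS10-NUDT3, which is not a member, measured 22.7, 3.83 and 18.5 FPKM in control and 5.15, 6.20 and 22.2 FPKM in TAX libraries. The libraries with low RPS10 (control replicates 1 and 3 and TAX replicate 3) were those with high RPS10-NUDT3. Reads of the shared exons can be given to either gene, so the level of RPS10 is uncertain. The part of the read-through gene in the spread of RPS10 was not tested. This pair was singled out after its values were seen.

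Several members have a paralog whose message can be told from theirs only in part. The paralog had the lower mean in both groups in 7 of the 9 pairs aligned, the exceptions being RPL36A with RPL36AL and RPS4X with RPS4Y1. The latter pair, 82.1% identical, had means of 175 and 164 FPKM in control and 184 and 185 FPKM in TAX libraries. In control and TAX libraries, respectively, the mean of RPL7 was 514 and 511 FPKM and that of RPL7L1, which acts in ribosome assembly, 54.1 and 58.6 FPKM. RPL26 had means of 638 and 626 FPKM and RPL26L1 of 29.5 and 30.8 FPKM. RPL39 had means of 272 and 269 FPKM and RPL39L, known from testis and tumours, of 26.3 and 26.9 FPKM. RPS27 had means of 735 and 597 FPKM and RPS27L, a target of p53, of 8.70 and 8.34 FPKM. RPL36A had means of 123 and 108 FPKM, below the 258 and 215 FPKM of RPL36AL. None of these genes passed the adjusted threshold.

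The coding sequences of the pairs, aligned in GENCODE 29, were between 56.4% identical for RPL7 and RPL7L1 and 94.8% identical for RPL39 and RPL39L. The longest run of identical bases was 60 for RPL36A and RPL36AL, 44 for RPL39 and RPL39L and 11 for RPL7 and RPL7L1. The pair RPL22 and RPL22L1, which can replace each other in the ribosome, were 68.6% identical with a longest run of 17 bases. RPL22L1 measured 17.7, 21.4 and 25.6 FPKM in control and 23.2, 25.1 and 23.9 FPKM in TAX libraries, where the TAX values lay inside the control range (log2 fold change 0.17, adjusted p = 0.651). The ratio of RPL22 to RPL22L1 was 3.91, 2.82 and 3.02 in control and 2.54, 2.52 and 2.40 in TAX libraries. All 3 TAX ratios lay below all 3 control ratios. This was not particular to the pair. The ratio of RPS4X to RPS4Y1 was 1.134, 1.036 and 1.029 in control and 1.004, 1.025 and 0.959 in TAX libraries, also without overlap. In the other pairs with both genes above 0 the ratios of the groups overlapped. These ratios were singled out after their values were seen and not tested.

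**Figure D5:**
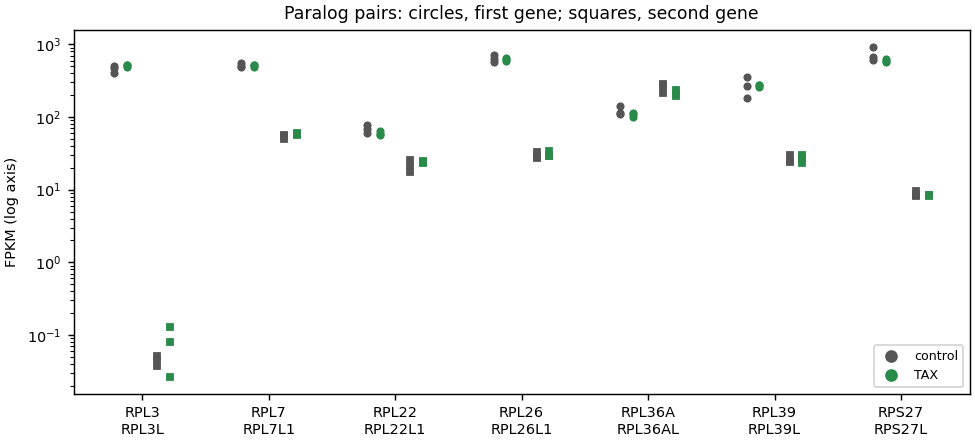
FPKM of paralog pairs in each library (log axis), with circles for the first gene of a pair and squares for the second, control libraries in grey and TAX libraries in green. The paralog lies below its partner in every plotted pair except RPL36A and RPL36AL.

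Genes that work with the ribosomal proteins were described in the same way, and their medians are set beside the members' 0.036 and the 0.054 of all tested genes. Their counts are read against the 69.1% of all tested genes above 0, and the 7.73% higher and 2.41% lower at an unadjusted p under 0.05. The 20 other TOP messages, which encode elongation and initiation factors and similar proteins, had a median log2 fold change of 0.058. Of these EEF1D, a subunit of the elongation factor exchange complex, was higher at an unadjusted p of 0.0266 (log2 fold change 0.24, adjusted p = 0.429) and none was lower. The 10 genes of mTORC1 and TOP control, LARP1 and MTOR among them, had a median of 0.095 and none reached an unadjusted p under 0.05. The 11 dedicated chaperones of ribosomal proteins had a median of 0.099, and HEATR3, which carries RPL5 into the nucleus, was higher at an unadjusted p of 0.0439 and an estimate of 0.17. None of the genes in these lists passed the adjusted threshold.

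Mitochondrial ribosomal proteins, which are made in the cytosol for a separate ribosome, had a median of 0.071, with 64 of 78 (82.1%) above 0. Of these 7 were higher and 1 lower at an unadjusted p under 0.05, shares near those of all tested genes, and none past the adjusted threshold. MRPL15 came nearest, at 30.2 ± 1.03 FPKM without and 38.6 ± 0.154 FPKM with TAX (SD, n = 3 each; adjusted p = 0.103 by limma). Nuclear subunits of oxidative phosphorylation, which are abundant short messages like those of the ribosome, had a median of 0.028 over 75 genes. Of these 6 were higher and 2 lower at an unadjusted p under 0.05, and ATP5F1A, a subunit of the ATP synthase, rose past the adjusted threshold (log2 fold change 1.22, adjusted p = 0.0301).

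The mean log2 value of the members over the 6 libraries was followed most closely by SEC11A, a signal peptidase subunit, with a Pearson correlation of 0.996. NDUFAF8 (0.988), RFC4 (0.978), MSTRG.14071 (0.974) and HACL1 (0.973) came next. These are the largest values among all tested genes that are not members, the 6 libraries are shared, and no test was made.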

How the data were processed

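RNA was isolated with Trizol from DU145 cells, and libraries were made with a dual-mode mRNA kit, per the labels. For each library the authors deposited a gene table, whose values were taken as FPKM because the submitters' processing notes name HISAT2 2.2.0, StringTie 2.1.2 and GRCh38 and because the sums differ between libraries; the headers name no unit. Replicates were not pooled. The roles of these tools, their settings and the annotation are not given in the sources used here. Of the identifiers, 3130 carry the StringTie prefix MSTRG. None of these is a member.

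Values as deposited were tested as log2(FPKM + 1) with limma 3.58.1 in R 4.3.3 (linear model, moderated statistics with trend, Benjamini-Hochberg adjustment) over genes that reached 1 FPKM in 3 or more of the 6 libraries. The pseudocount understates the change of low genes. The method was tested on simulated data. Positions, transcript lengths (median of the protein-coding transcripts of a gene), pseudogenes, snoRNAs and coding sequences came from GENCODE 29 (GRCh38), and start windows from the RefSeq promoter table (GRCh38.p14). Antisense or overlapping genes were not separated, as strand use in counting was not stated. The members and lists were chosen with earlier results of these data known, and no set was tested. Members named in the text were the 5 with the smallest p, the 4 largest rises and the 4 largest falls, the 5 highest and 5 lowest means, both genes of 8 paralog pairs, the stalk, RPL5, RPL11, RPS6, RPS14, RPS19 and RPSA, any listed at 0 in a library, and, of each other list, at most 3 genes with the smallest p. RPS29, RPL37, the pair RPS4X and RPS4Y1, and the members singled out because their groups did not overlap or their controls spread widely were named after their values were seen. Values of a few single genes are not reported here. The closing section gives the effect of other pseudocounts, filters, scalings, a replicate block, a length correction and leaving out libraries.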

Additional observations from a re-analysis of the deposited data

How the results depend on the processing

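No ribosomal protein gene passed the adjusted threshold under any alternative. Over all tested genes 59 were called, compared with 95 after quantile normalization, 96 after centring, 75 after rescaling to a common sum, 111 after a length correction, 26 with the replicate block, 1 without a filter, 27 without control replicates 1 and 3, and 19 to 40 with each library left out in turn. Members at an unadjusted p under 0.05 numbered 2 (all genes 10.1%), compared with 4 after rescaling (12.6%), 7 after quantile normalization (11.8%), 4 after centring (12.1%), 4 without the trend (10.2%), 5 after the length correction (13.5%), 0 without a filter (9.14%), 1 without control replicates 1 and 3 (9.45%), and 1 to 9 with each library left out in turn (9 without control replicate 2, where all genes gave 13.3%, and 5 without control replicate 3, where they gave 11.3%). The percentages are shares of all genes tested in the same setting. The length correction and the removal of both controls were chosen after seeing the data. The cause of these shifts was not tested. The large subunit median of 0.0016 became -0.054 after quantile normalization and -0.056 after centring, and the small subunit median of 0.066 became -0.0012 after quantile normalization and -0.011 without both controls. The large minus small difference became 0.026 without both controls and ran from -0.085 to -0.0073 with each library left out. Of 480 single values, 449 kept their direction and side of the threshold and 31 changed sign.
Sign changes after quantile normalization were RPL26 0.017, RPL26L1 -0.0092, RPL39L -0.041, RPS14 -0.044 and RPS19 -0.013. After centring they were RPL39 -0.018, RPL39L -0.028, RPS14 -0.019, RPS18 -0.00094 and RPS19 -0.0048. Without both controls they were RPL39 -0.0038, RPL7 0.020, RPL7A -0.010, RPS10 -0.26, RPS18 -0.047 and RPS27L 0.024. With each library left out the values ran from -0.10 to 0.063 for RPL26, -0.0075 to 0.14 for RPL26L1, -0.42 to 0.035 for RPL35A, -0.21 to 0.27 for RPL39, -0.057 to 0.13 for RPL39L, -0.049 to 0.049 for RPL7, -0.071 to 0.18 for RPL7A, -0.014 to 0.12 for RPS14, -0.0048 to 0.087 for RPS19 and -0.092 to 0.0082 for RPS27L. The deviations of same-numbered libraries correlated at -0.117, -0.333 and -0.171. With 3 libraries per group these values cannot show whether same-numbered libraries share a batch or culture, and the labels do not say. The replicate block left 2 members at an unadjusted p under 0.05 (7.86% of all genes). Without counts, the depth behind each value is unknown.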
